A study of Rattus norvegicus with 8 samples.

Results

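The genes described here encode subunits of the mitochondrial respiratory chain and of ATP synthase, the machinery that turns fuel into ATP in the kidney tubule. They were chosen by name from a list of 44 genes, with no measured value in the rule: 22 of complex I, 4 of complex II, 7 of complex III, 7 of complex IV and 4 of complex V. Of these, 40 were measured, among 19865 genes tested on the arrays. In that count, and in every share of all genes below, probes without a symbol stand under their accession. Ndufs6, Ndufa8 and Ndufa10 were matched to no probe through RefSeq identifiers, the only match made, and were not analysed here. The probe of Uqcrq was well above background on 0 of 8 arrays. Not every gene of the list is a subunit: Ndufaf5 is an assembly factor of complex I, Cycs is cytochrome c, the mobile carrier between complexes III and IV, and Ndufa4, listed with complex I by its name, is now placed in complex IV. All members are nuclear genes.

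The kidneys came from 10-week-old male F344/NSlc rats, 4 of which had lost the other kidney by unilateral nephrectomy and 4 of which had a sham operation. The right kidney of each, the one left after nephrectomy, was hybridised in 1 colour, each rat on an array of its own, to Agilent rat expression arrays. The sample labels place the nephrectomized kidneys 2 days after surgery and the sham kidneys 1 day after it, whereas the series text gives 2 days for all, so a difference in day cannot be told apart from the operation if the sample labels are right. No transgene or drug is named for either group. Between 54.8% and 65.5% of the 41012 gene probes were well above background on an array, and 0 were saturated. Each of the 2 slides held 2 rats of each group. Sham rat 1, with the fewest probes above background, stood apart on the second principal component, which held 21.6% of the variance, while the first, with 32.5%, separated the groups. Of the proximal tubule markers, 13 of 14 were well above background on all 8 arrays, as were 6 thick ascending limb and distal markers and 9 collecting duct markers.

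In the respiratory chain, complex I takes electrons from NADH and complex II takes them from succinate. Both pass them to ubiquinone, complex III hands them on to cytochrome c, and complex IV delivers them to oxygen. Complexes I, III and IV pump protons across the inner membrane, and complex V, ATP synthase, lets them back to make ATP. In the kidney the proximal tubule and the thick ascending limb are rich in mitochondria, since they carry most of the sodium transport, and a kidney left alone after nephrectomy grows and filters more.

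The respiratory chain genes lay slightly higher in nephrectomized kidneys, by amounts that for all but 1 of them did not pass the test. Ndufaf5 rose, at 1.25-fold, and it was the sole member called at an adjusted p under 0.05 (limma, Benjamini-Hochberg over all genes tested, 4 arrays against 4). That is 1 of 40, or 2.5%, where 3.59% of all genes tested were called in either direction and 2.57% as higher, and 0 of 40 were called lower, where 1.02% of all genes were. At an unadjusted p under 0.05 there were 7 members, or 17.5%, beside 17.7% of all genes. All 7 had the higher signal in nephrectomized kidneys, a direction that 10.1% of all genes took at that p. Over both directions together, the share of members past either threshold was therefore near the background. For the higher direction alone at the unadjusted p it was 17.5% beside 10.1%, a difference that was not tested.

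The signs and the sizes of the differences describe the set more fully. The difference, nephrectomized minus sham on the log2 scale, was positive in 31 of 40 members and negative in 9, beside 49.9% positive among all genes. With quantile normalization 30 were positive, as Ndufb8 and Cox8a turned slightly negative and Atp5f1b slightly positive, and with normexp background correction 29 were, as Ndufa2 and Cox5a turned negative. The median was 0.08, or 1.06-fold, beside -0.00041 over all genes, and the differences ran from -0.09 for Ndufs4 to 0.32 for Ndufaf5. The 95% interval of every measured member lay within 0.5 log2 units of no difference on either side. The widest bounds were 0.805-fold, for Ndufv1, and 1.37-fold, for Ndufaf5, so a loss or gain of 1.5-fold lay outside all 40 intervals. In whole kidney, fewer cells of a type and less RNA per cell cannot be told apart.

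In 11 members, or 27.5%, every nephrectomized rat lay above every sham rat, and in 0 members every one lay below. Among all genes 7.59% lay wholly above and 5.09% wholly below. Most members have bright probes, and bright probes vary less between rats. Among the 1661 genes with a mean log2 level over 4, a limit chosen after the data were seen, 3.37% were called, 12.8% lay wholly above, 7.8% wholly below and 54.4% were positive. Of the 34 members in that class, 0 were called, 10 lay wholly above and 27 were positive, with a median difference of 0.08 beside 0.01 for the class.

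**Figure D1:**
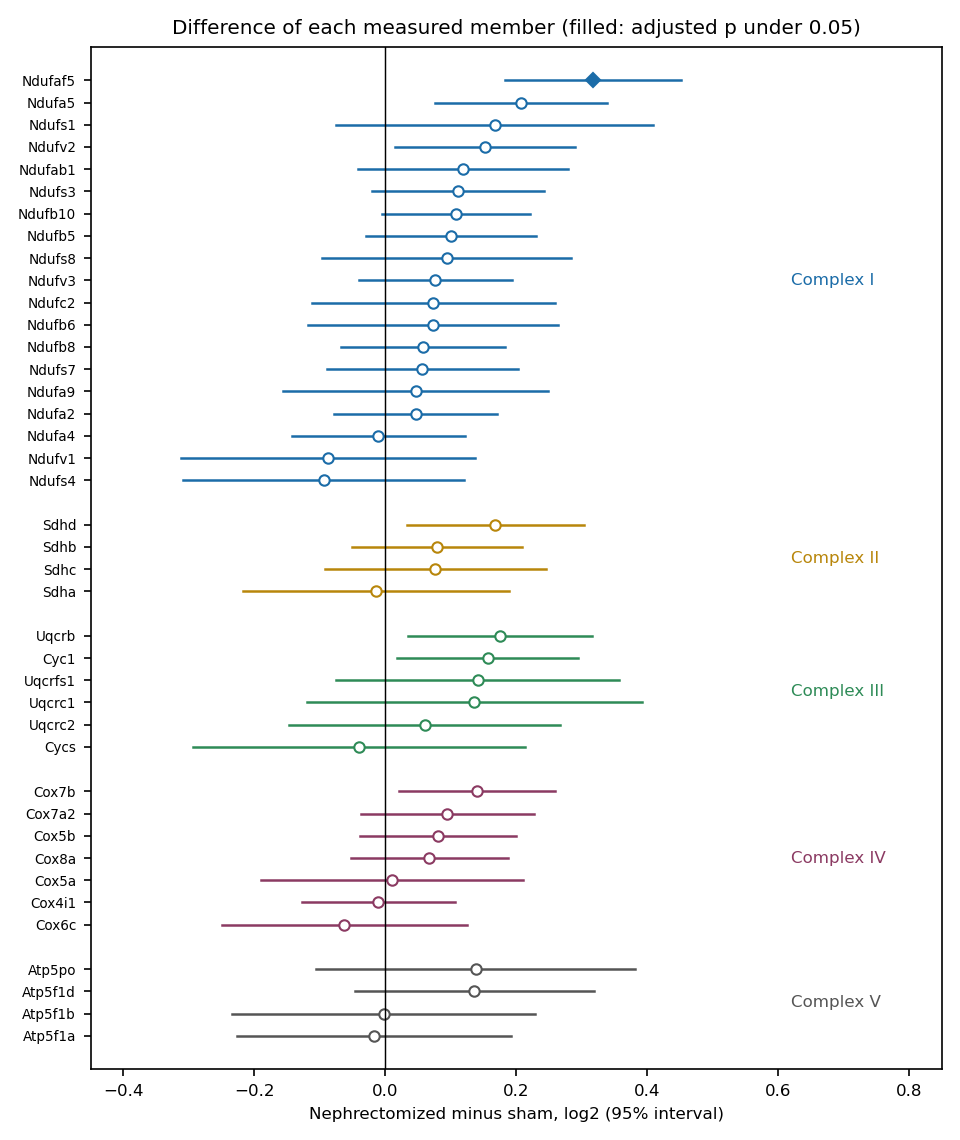
Difference between nephrectomized and sham kidneys of the 40 measured members, on the log2 scale (x axis), grouped by complex and sorted within it. Points are limma estimates and lines 95% intervals (4 rats a group). The filled diamond is Ndufaf5 at 0.32, the 1 member with an adjusted p under 0.05, and the other 39 points lie between -0.09 and 0.21.

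Complex I, the NADH dehydrogenase, had 19 of its 22 listed members measured, 16 of them with a positive difference, and a median difference of 0.08. Its 1 call was Ndufaf5, the assembly factor that hydroxylates an arginine of Ndufs7 during the building of the complex. Levels throughout are log2 signal over the array's 75th percentile, and for Ndufaf5 they were 3.52, 3.56, 3.68 and 3.61 in nephrectomized rats 1 to 4, against 3.30, 3.32, 3.24 and 3.24 in sham rats 1 to 4. The groups did not overlap. The means were 3.59 ± 0.07 in nephrectomized and 3.27 ± 0.04 in sham kidneys (SD, n = 4 each). The difference was 0.32 (SE 0.06, 95% interval 0.18 to 0.45, limma adjusted p 0.0246), and it was 0.23 on the first slide and 0.40 on the other. The call was lost when sham rat 2, 3 or 4 or nephrectomized rat 2 or 4 was left out, with limma adjusted p between 0.0586 and 0.0912 and a log2 difference of 0.31 to 0.33. It was also lost with dim probes kept in the fit, at an adjusted p of 0.129.

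Among the subunits of complex I, Ndufa5, an accessory subunit of the peripheral arm, had the smallest p. Its levels were 7.16, 7.06, 7.11 and 7.09 in nephrectomized rats, against 6.81, 6.94, 6.92 and 6.93 in sham rats. The groups did not overlap, and the difference of 0.21 (SE 0.06, 95% interval 0.08 to 0.34, 1.15-fold) did not pass the test at a limma adjusted p of 0.0996. At the other end, Ndufs4, an accessory subunit whose loss causes Leigh syndrome in humans, had levels of -0.97, -1.20, -0.90 and -1.19 in nephrectomized rats, against -1.07, -0.90, -0.84 and -1.06 in sham rats. These ranges overlapped in part, from -1.07 to -0.90, with a difference of -0.09 (95% interval -0.31 to 0.12, limma adjusted p 0.661).

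The 6 measured core subunits of complex I, those with a counterpart in the bacterial enzyme, had 5 positive differences and a median of 0.10, and the 12 listed as accessory subunits, Ndufa4 included, had 10 and a median of 0.07, a split made after the data were seen. In the part that oxidises NADH, Ndufv1 carries the flavin, and Ndufs1 and Ndufv2 carry iron-sulfur clusters. Their differences were -0.09 for Ndufv1, 0.17 for Ndufs1 and 0.15 for Ndufv2, with adjusted p of 0.706, 0.466 and 0.234 by limma. Ndufv2 was the only 1 of these 3 whose groups did not overlap, at 6.91, 6.87, 7.01 and 6.85 in nephrectomized rats, against 6.72, 6.81, 6.72 and 6.79 in sham rats. In the part that leads electrons to ubiquinone, Ndufs3 differed by 0.11, Ndufs7 by 0.06 and Ndufs8 by 0.09, and Ndufs3 alone of these lay wholly above. None passed the test.

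Of the accessory subunits, Ndufb10 was the steadiest member across rats, with a within-group SD of 0.0196. Its levels were 5.17, 5.13, 5.19 and 5.17 in nephrectomized rats, against 5.06, 5.04, 5.06 and 5.06 in sham rats, a difference of 0.11 with a limma adjusted p of 0.307. The groups did not overlap although the difference was only 1.08-fold. Ndufv3, with 0.08, also lay wholly above. Ndufab1, the mitochondrial acyl carrier protein, differed by 0.12 and Ndufb5 by 0.10, with overlapping groups. Ndufb6, Ndufb8 and Ndufa9, the last of these a subunit next to the ubiquinone site, differed by 0.07, 0.06 and 0.05, and Ndufa4 by -0.01. For Ndufa2 and Ndufc2 the brighter probe gave 0.05 and 0.07 and the dimmer -0.08 and -0.21, so the direction of these 2 genes was not settled, and no probe of either was called.

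**Figure D2:**
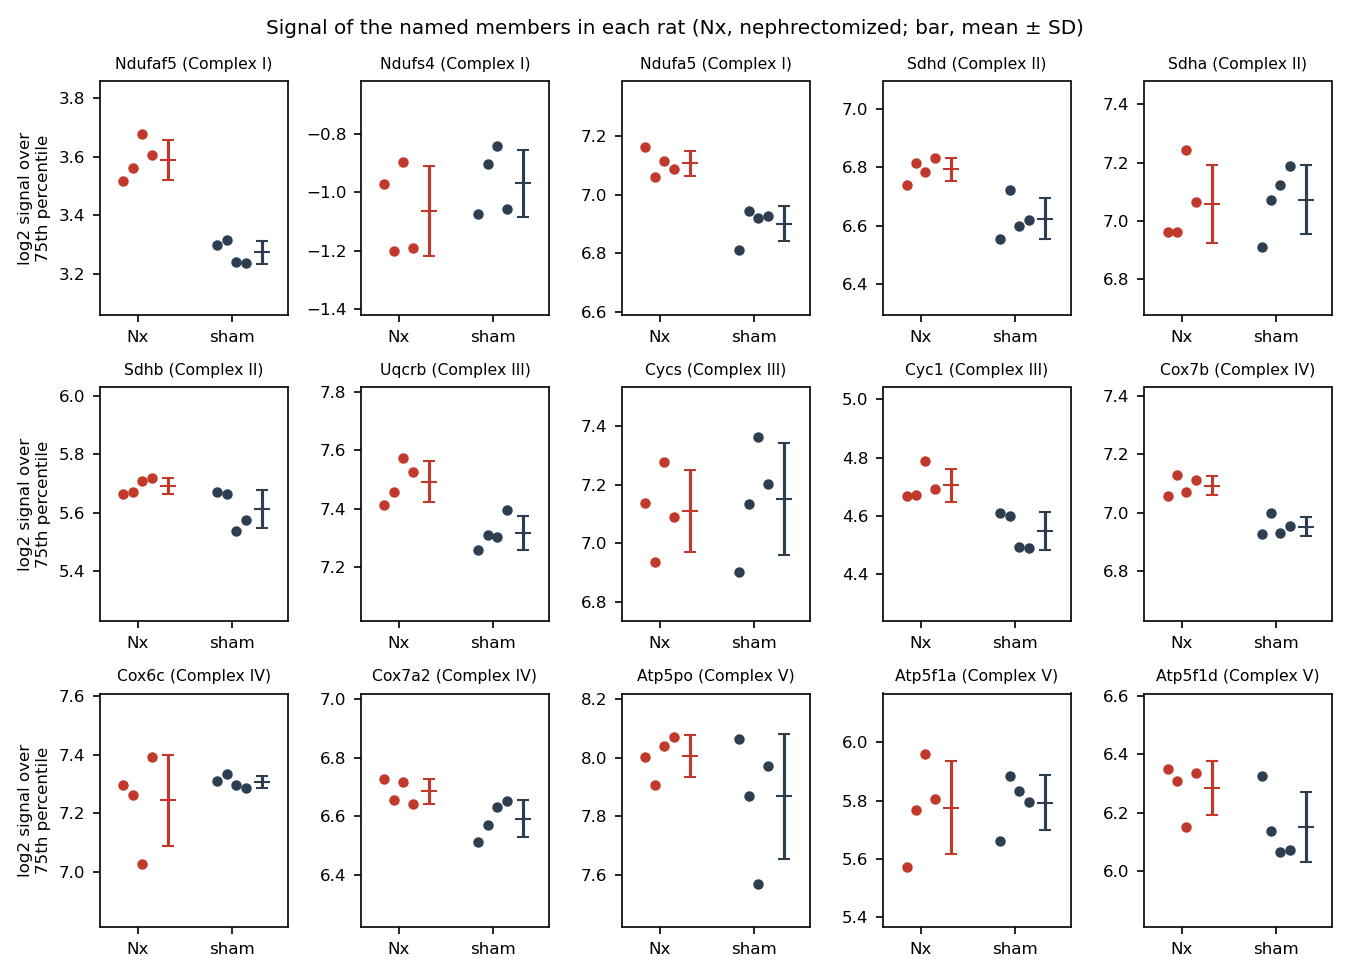
Level of 15 members in each rat, as log2 signal over the array's 75th percentile (y axis, each panel spanning 0.8 units), with nephrectomized rats (Nx, red) left and sham rats (dark) right. Points are rats 1 to 4 and bars the mean ± SD (n = 4). The groups stand apart for Ndufaf5, Ndufa5, Sdhd, Uqcrb, Cyc1 and Cox7b and overlap for the other 9.

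Complex II, succinate dehydrogenase, is also an enzyme of the tricarboxylic acid cycle, and all 4 of its genes were measured. None passed the test, 3 of 4 differences were positive and the median was 0.08, with 0.03 on the first slide and 0.13 on the other. Sdhd, a membrane anchor that helps to bind ubiquinone, had levels of 6.74, 6.82, 6.78 and 6.83 in nephrectomized rats, against 6.56, 6.72, 6.60 and 6.62 in sham rats. The groups did not overlap, by a narrow margin, and the difference was 0.17 (95% interval 0.03 to 0.30, limma adjusted p 0.179). Sdha, the flavoprotein that oxidises succinate, had 6.96, 6.96, 7.24 and 7.07 in nephrectomized rats, against 6.91, 7.07, 7.12 and 7.19 in sham rats. Here the groups overlapped over most of their range, with a difference of -0.01 (95% interval -0.22 to 0.19, limma adjusted p 0.955). Sdhb, the iron-sulfur subunit, had 5.66, 5.67, 5.71 and 5.72 in nephrectomized rats, against 5.67, 5.66, 5.54 and 5.58 in sham rats. The difference of 0.08 (limma adjusted p 0.526) came from slide 2, at 0.16, with 0.00 on the first slide. Sdhc, the other anchor, differed by 0.08 with overlapping groups.

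Complex III, the cytochrome bc1 complex, had the highest median of the 5 complexes, 0.14 over 6 measured members, 5 of them positive, and none passed the test. Uqcrb, a small subunit near the ubiquinone site, had levels of 7.41, 7.46, 7.57 and 7.53 in nephrectomized rats, against 7.26, 7.31, 7.31 and 7.40 in sham rats. The groups did not overlap, and all 3 of its probes had a positive sign, the brightest at 0.17 (95% interval 0.03 to 0.32, limma adjusted p 0.179). Cyc1, which carries the heme that reduces cytochrome c, had 4.67, 4.67, 4.79 and 4.69 in nephrectomized rats, against 4.61, 4.60, 4.49 and 4.49 in sham rats. The groups again did not overlap, at a difference of 0.16 (95% interval 0.02 to 0.29, limma adjusted p 0.223). Uqcrfs1, the Rieske iron-sulfur protein, differed by 0.14, and the large core proteins Uqcrc1 and Uqcrc2 by 0.14 and 0.06, all with overlapping groups.

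The median of complex III depended on single rats. Nephrectomized rat 3 had a median deviation of 0.26 from the sham mean over the complex, beside 0.04, 0.01 and 0.11 in nephrectomized rats 1, 2 and 4, and sham rat 1 had -0.11, beside 0.00, 0.03 and 0.06 in sham rats 2 to 4. On the first slide the median was 0.05 and on the other 0.17. Without nephrectomized rat 3 the median of the complex was 0.05, and with sham rat 1 left out as well it was 0.01. Cytochrome c itself, Cycs, went the other way in sign, with 7.14, 6.93, 7.28 and 7.09 in nephrectomized rats, against 6.90, 7.13, 7.36 and 7.20 in sham rats. These groups overlapped fully. The difference was -0.04 (95% interval -0.29 to 0.21, limma adjusted p 0.892), and all 3 probes of the gene were slightly negative.

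Complex IV, cytochrome c oxidase, had all 7 listed members measured, 5 of them positive, a median difference of 0.07 (0.0044 with quantile normalization) and no call. Cox7b, a small structural subunit, had levels of 7.06, 7.13, 7.07 and 7.11 in nephrectomized rats, against 6.93, 6.999, 6.93 and 6.95 in sham rats. The groups did not overlap and the rats of each were close together, with a difference of 0.14 (95% interval 0.02 to 0.26, limma adjusted p 0.206). Cox7a2, the isoform of subunit VIIa found in most tissues, had 6.73, 6.66, 6.72 and 6.64 in nephrectomized rats, against 6.51, 6.57, 6.63 and 6.65 in sham rats. Those groups overlapped through sham rat 4, and the difference was 0.09 (limma adjusted p 0.452). Cox6c, another small subunit, had 7.30, 7.26, 7.03 and 7.39 in nephrectomized rats, against 7.31, 7.34, 7.30 and 7.29 in sham rats. Its difference of -0.06 (limma adjusted p 0.753) was the lowest of the complex, and nephrectomized rat 3, high for most other members, was the lowest of all 8 rats for this one. Cox4i1, the regulatory subunit to which ATP binds, was among the most tightly bounded members, with a difference of -0.01 and a 95% interval of -0.13 to 0.11. Cox5b, which binds zinc, lay wholly above with 0.08 on each of its 2 probes, Cox8a differed by 0.07 and Cox5a by 0.01.

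Complex V, ATP synthase, had 4 members measured, 2 positive and 2 negative, none called, and 0 with groups apart. Atp5po (listed under its older name Atp5o), the stalk protein OSCP that holds the catalytic head, had levels of 8.002, 7.91, 8.04 and 8.07 in nephrectomized rats, against 8.06, 7.87, 7.57 and 7.97 in sham rats. Sham rat 3 was the lowest here, and the difference was 0.14 (95% interval -0.11 to 0.38, limma adjusted p 0.559). Atp5f1d (Atp5d), the delta subunit of the rotor, had 6.35, 6.31, 6.15 and 6.34 in nephrectomized rats, against 6.32, 6.14, 6.07 and 6.07 in sham rats. The groups overlapped through sham rat 1 and nephrectomized rat 3, with a difference of 0.14 (limma adjusted p 0.432). Atp5f1a (Atp5a1), the alpha subunit, had 5.57, 5.77, 5.96 and 5.81 in nephrectomized rats, against 5.66, 5.88, 5.83 and 5.79 in sham rats. The difference was -0.02 (95% interval -0.23 to 0.19, limma adjusted p 0.947), and that of Atp5f1b (Atp5b), the catalytic beta subunit, was -0.00 (95% interval -0.23 to 0.23). The median of the complex, 0.07, was -0.06 on the first slide and 0.15 on the other, so it had no settled sign.

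Some rats were high or low for many members at once, although not in every complex. Over the 40 members, the median deviation from the sham mean was 0.07, 0.04, 0.16 and 0.08 in nephrectomized rats 1 to 4, against -0.06, 0.02, 0.01 and 0.00 in sham rats 1 to 4. Every nephrectomized rat thus lay above every sham rat on this median. Nephrectomized rat 3 was the highest of its group in 23 of 40 members and nephrectomized rat 2 the lowest in 19, while sham rat 1 was the lowest of its group in 24. In complex IV nephrectomized rat 3, at a median deviation of 0.063, was below nephrectomized rats 1 and 2, and in complex V sham rat 1, at 0.045, was not low. Across the 8 arrays, after removal of the group means, the correlation between members had a median of 0.19 over 780 pairs, with quartiles of -0.26 and 0.62. With nephrectomized rat 3 and sham rat 1 both left out, 27 of 40 differences were positive and the median was 0.05, and Ndufaf5 kept its call at a limma adjusted p of 0.0391. The median was 0.06 on the first slide and 0.10 on the other. The part of array quality in the low values of sham rat 1, the array with the fewest probes above background, was not tested.

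**Figure D3:**
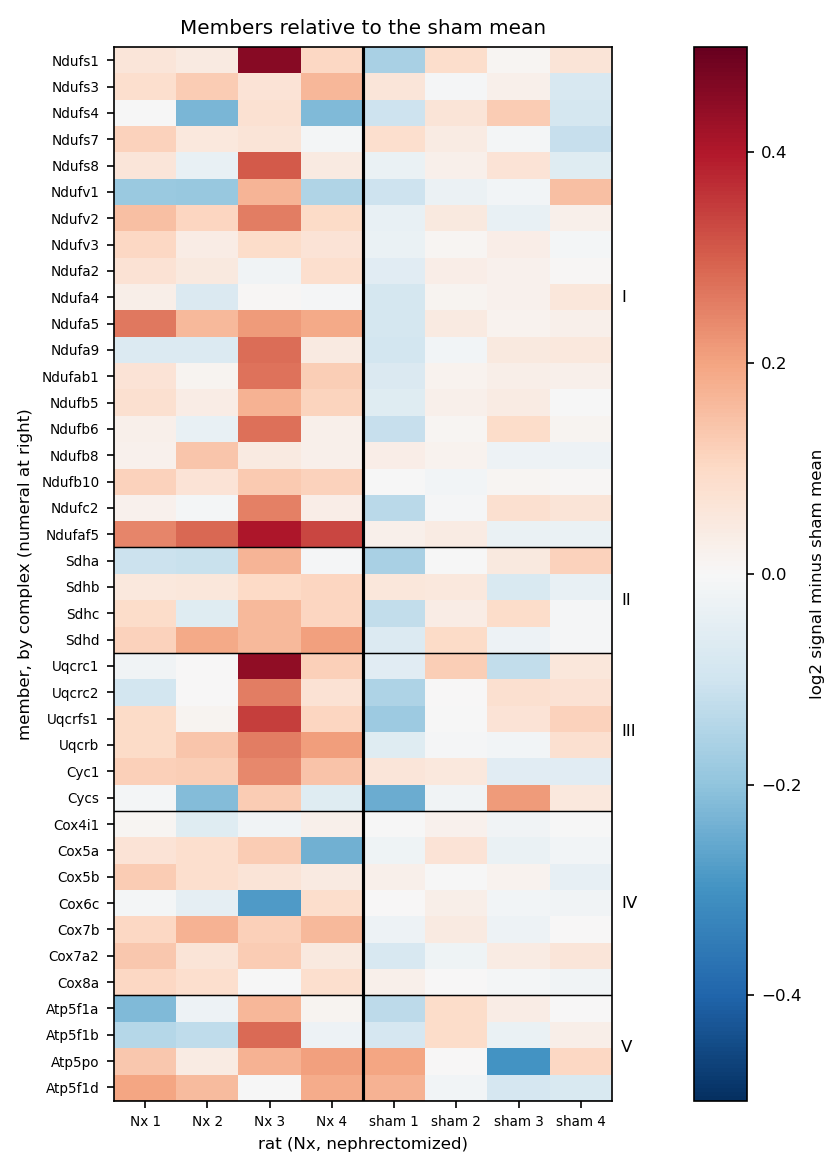
Each measured member (rows, by complex) in each rat (columns, nephrectomized rats left, sham rats right), coloured by log2 signal minus the mean of the sham rats. The column of nephrectomized rat 3 is the reddest, with 0.46 for Ndufs1, and that of sham rat 1 is mostly blue, while the row of Ndufaf5 is red in all 4 nephrectomized rats.

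For the spread between rats, the within-group SD had a median of 0.0780 log2 units over the members, beside 0.143 over all genes, and of 0.0628 over the bright members, beside 0.0877 over all bright genes. It ranged from 0.0196 for Ndufb10 to 0.170 for Uqcrc1. After Uqcrc1, the widest were Cycs, Atp5po, Ndufs1, Atp5f1b and Ndufv1, and after Ndufb10 the narrowest were Ndufv3, Cox4i1, Cox5b and Cox7b.

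Nuclear respiratory chain genes are known to be driven by nuclear respiratory factor 1 (NRF1), by the ETS-family factor GABP (also called NRF2), by YY1 and by estrogen-related receptors with their coactivators. Promoters from 250 bases before to 50 bases after the start were at hand for 40 of the 44 listed genes, from RefSeq on the GRCr8 build, and were searched for fixed letters on both strands. The NRF1 motif GCGCATGCG was in 4 of 40, or 10%, beside 1.66% of 27457 promoters of all genes: Ndufaf5, Atp5po, Cycs and Uqcrc1. Its shorter core TGCGCA, which can overlap it, was in 27.5% of members' promoters beside 7.68% of all. The ETS motif CCGGAAG was in 30% beside 9.22%, the YY1 motif AAGATGGC in 25% beside 3.44%, and the estrogen-related receptor motif TCAAGGTCA in 1 member, Sdhd, or 2.5% beside 0.412%. The 27457 promoters were not limited to genes expressed in the kidney, nor matched to the members for base composition. The 250 bases before the start are shown for the 1 called gene, for 2 genes with the same NRF1 letters that were not called, Atp5po and Cycs, and for Uqcrc2, which holds 2 ETS motifs. Capitals mark the motifs on either strand, each sequence runs in the direction of its gene, and the intervals are chr3:147961362-147961611 (plus strand) for Ndufaf5, chr11:44657484-44657733 (minus strand) for Atp5po, chr4:80984768-80985017 (minus strand) for Cycs and chr1:184598990-184599239 (plus strand) for Uqcrc2.
Ndufaf5: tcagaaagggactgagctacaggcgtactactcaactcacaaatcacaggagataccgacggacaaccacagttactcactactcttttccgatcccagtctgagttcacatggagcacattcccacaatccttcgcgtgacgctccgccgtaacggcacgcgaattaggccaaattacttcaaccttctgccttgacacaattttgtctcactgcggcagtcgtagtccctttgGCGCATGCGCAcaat
Atp5po: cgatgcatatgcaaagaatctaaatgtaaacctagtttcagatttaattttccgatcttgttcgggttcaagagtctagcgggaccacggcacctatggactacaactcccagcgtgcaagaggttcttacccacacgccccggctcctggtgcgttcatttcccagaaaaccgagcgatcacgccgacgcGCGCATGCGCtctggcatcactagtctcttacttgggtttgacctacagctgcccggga
Cycs: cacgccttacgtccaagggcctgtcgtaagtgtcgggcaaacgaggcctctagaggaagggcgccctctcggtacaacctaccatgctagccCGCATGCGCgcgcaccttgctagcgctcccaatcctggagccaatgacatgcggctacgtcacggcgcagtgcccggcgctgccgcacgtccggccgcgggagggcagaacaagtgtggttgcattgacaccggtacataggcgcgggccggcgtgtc
Uqcrc2: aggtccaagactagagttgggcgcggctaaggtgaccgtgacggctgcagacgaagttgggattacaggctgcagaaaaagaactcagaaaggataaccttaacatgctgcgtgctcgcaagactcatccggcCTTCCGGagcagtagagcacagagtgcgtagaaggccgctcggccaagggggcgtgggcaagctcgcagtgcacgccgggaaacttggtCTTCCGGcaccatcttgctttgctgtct
Beside these letters stand differences of 0.32 for Ndufaf5, 0.14 for Atp5po, -0.04 for Cycs, 0.14 for Uqcrc1 and 0.06 for Uqcrc2. A gene with the NRF1 letters thus had the highest difference of the set and another had one of the 9 negative ones, and binding of these factors was not measured.

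Beside the members stand the other subunits of the same complexes, in lists chosen with earlier results of these data known. The complex V list also counts Atp5if1, an inhibitor and not a subunit, and the associated factor Dmac2l. Of 44 further genes 36 were measured, 28 had a positive difference, 0 were called and the median was 0.09. At an unadjusted p under 0.05 (limma) there were 9, or 25%, beside 17.7% of all genes. Wholly above lay 15, or 41.7%, beside 7.59% of all genes and 12.8% of the bright genes. The other subunits of complex I had 12 of 13 positive and a median of 0.10, with the smallest p for Ndufa12 at 0.22 (limma adjusted p 0.0711) and Ndufb7 at 0.14. Those of complex III had 3 of 3 positive, with 0.16 for Uqcrh and 0.14 for Uqcr10, and those of complex V had 11 of 13, with 0.22 for Atp5mc1, a gene for the membrane ring (limma adjusted p 0.109), and 0.20 for Atp5me. The further subunits and isoforms of complex IV had 2 of 7 positive and a median of -0.04, among them Cox6a1 at 0.11 and Cox7c at -0.11. None of these differences passed the test.

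Around the chain, the assembly factors had 23 of 33 positive differences, a median of 0.07 and no call, with 0.24 for Cox17, a copper chaperone of complex IV, and 0.22 for Cox20. Genes of mitochondrial carriers, import and the inner membrane had 23 of 27 positive and no call, led by Chchd3, a protein of the cristae junctions, at 0.28 (limma adjusted p 0.0727) and the prohibitin Phb1 at 0.16. Proteins of the mitochondrial ribosome, which translates the subunits encoded in mitochondrial DNA, had 47 of 66 positive and a median of 0.05. There 1 gene, or 1.52% beside 3.59% of all genes, was called. Mrpl13 was higher, with 0.25 (limma adjusted p 0.0492). The call was lost when any 1 rat was left out, with scaling to the array median, at 0.0532, and with normexp, at 0.114. It was also lost with the authors' deposited value table, at 0.0843. That table, here and below, holds nearly the same scaled values, but was tested over 25540 genes in place of 19865. For Mrpl13 it gave the same 0.25.

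In the tricarboxylic acid cycle, which feeds complexes I and II, 12 of 18 differences were positive with a median of 0.06. At an unadjusted p under 0.05 (limma) there were 6 genes, 4 of them positive, or 33.3% beside 17.7% of all genes. The 1 gene called, or 5.56% beside 3.59% of all genes, was citrate synthase, Cs, which rose. Its levels were 4.10, 4.27, 4.25 and 4.29 in nephrectomized rats, against 3.89, 3.89, 3.92 and 3.92 in sham rats, with no overlap. The difference was 0.32 (SE 0.06, 1.25-fold, limma adjusted p 0.0275), and a dimmer probe of the gene gave 0.33 with an adjusted p of 0.178. Leaving out any rat but nephrectomized rat 1 took the adjusted p to between 0.0513 and 0.0997, and the authors' deposited value table gave 0.0527. Enzymes of coenzyme Q synthesis and of other electron entry had 7 of 16 positive. The 1 gene called, or 6.25% beside 3.59% of all genes, was Sqor, the sulfide quinone oxidoreductase. Sqor fell by 0.26 on the log2 scale (limma adjusted p 0.0451). That call was lost when any 1 rat was left out and with the authors' deposited value table, at 0.0781. It was also lost with the mean of its 2 probes, at 0.126, and with normexp, at 0.0777.

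Regulators of mitochondrial biogenesis had mostly negative differences, 17 of 21, with a median of -0.08. Among them 1 gene, or 4.76% beside 3.59% of all genes, was called. That gene was Ppargc1b, a coactivator of the estrogen-related receptors. Its levels were 0.78, 1.03, 1.03 and 0.90 in nephrectomized rats, against 1.29, 1.80, 1.46 and 1.51 in sham rats. Every nephrectomized rat lay below every sham rat, and the gene fell by 0.58 on the log2 scale (SE 0.11, 0.668-fold, limma adjusted p 0.0292). Leaving out sham rat 3 or 4, or nephrectomized rat 1, 2 or 4, ended the call, at adjusted p between 0.0587 and 0.0954, as did use of the authors' deposited value table, at 0.0579. The main coactivator of the pathway, Ppargc1a, differed by -0.19 (95% interval -0.52 to 0.14), and the factors named above differed by -0.01 for Nrf1, -0.09 for Gabpa, -0.08 for Yy1 and -0.08 for Esrra. The largest of these was that of Esrrg, another estrogen-related receptor, at -0.32 with a wide 95% interval of -1.28 to 0.64. Sham rat 4, at -1.51, stood apart for Esrrg, with the other sham rats at -3.58 to -3.10 and nephrectomized rats at -3.43 to -3.10. For Esrra nephrectomized rat 3 was low, at 4.66 beside 5.27 to 5.33 in the other nephrectomized rats and 5.14 to 5.30 in sham rats. Tfam, which packs and transcribes mitochondrial DNA, differed by -0.06. Atp5if1, the inhibitor of ATP synthase counted above with the complex V list, differed by -0.01. These last 8 genes, from Ppargc1a on, were named after their values were seen, and none passed the test.

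Set beside other routes to ATP, fatty acid oxidation had 11 of 19 positive differences, a median of 0.05, 0 called and 0 at an unadjusted p under 0.05. Its smallest p were those of Acaa1a, a peroxisomal thiolase, at -0.15 and Acadm, the medium-chain acyl-CoA dehydrogenase, at -0.14. The glycolysis and hypoxia list had 15 of 19 positive and a median of 0.15, with Ldha, lactate dehydrogenase A, called higher at 0.28 and Ankrd37, a target of the hypoxia factor, called lower at -0.37, both at a limma adjusted p of 0.0275. Ldha no longer passed when any rat but sham rat 1 and nephrectomized rat 3 was left out, at adjusted p between 0.0593 and 0.104, and Ankrd37 when sham rat 2, 3 or 4 or nephrectomized rat 2 or 4 was, at 0.0575 to 0.0880. With the authors' deposited value table neither passed, at adjusted p of 0.0507 for Ldha and 0.0549 for Ankrd37. Differences between these lists were not tested.

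**Figure D4:**
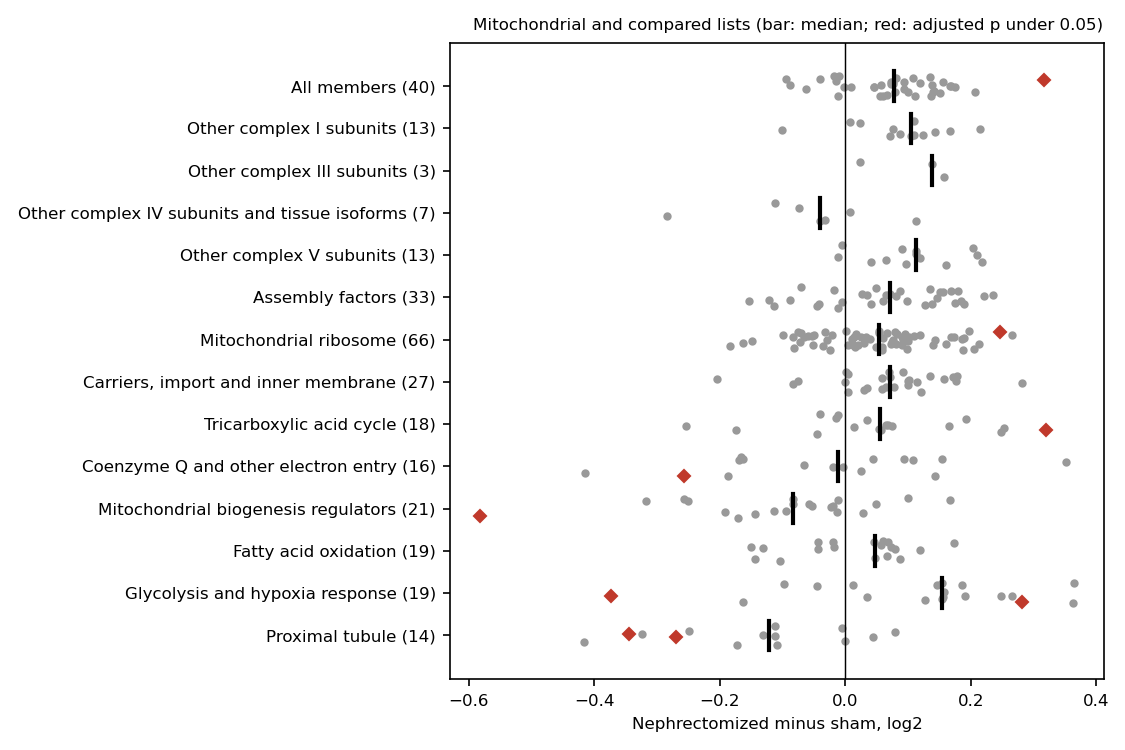
Difference between nephrectomized and sham kidneys on the log2 scale (x axis) for every measured gene of 14 lists (y axis, number measured in brackets). Points are genes, bars list medians and red diamonds genes with an adjusted p under 0.05. The member median of 0.08 lies among those of the other mitochondrial lists, above that of the biogenesis regulators at -0.08 and of the proximal tubule markers at -0.12.

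Markers of the cell types that hold most mitochondria did not all keep their level. The linear signals of the 14 proximal tubule markers summed to 1237 to 1309 times the array's 75th percentile in nephrectomized rats, against 1341 to 1394 in sham rats, with no overlap. Only 3 of 14 differences were positive, and the median was -0.12. Of these markers 2, or 14.3%, were called lower, beside 1.02% of all genes, and 0 were called higher. The 2 were Miox at -0.35 (limma adjusted p 0.0244) and Hnf4a at -0.27 (limma adjusted p 0.0236). Both of these calls ended when the same rats as for Ndufaf5 were left out, at adjusted p between 0.0535 and 0.0877, and that of Miox also without nephrectomized rat 1, at 0.0520. The call of Hnf4a rests on its brightest probe, and with the mean of its 3 probes the adjusted p was 0.0682. The members' own signals summed the other way, to 3518 to 3696 in nephrectomized rats, against 3351 to 3446 in sham rats, sums in which the brightest probes weigh most. Thick ascending limb and distal markers summed to 482 to 584 in nephrectomized rats, against 480 to 591 in sham rats, and collecting duct markers to 247 to 303 in nephrectomized rats, against 237 to 296 in sham rats, so both ranges overlapped. Leukocyte markers, with 8 of 11 measured, summed to 105 to 126 in nephrectomized rats, against 102 to 126 in sham rats, and 0 were called. Cell division genes were called higher in 8 of 8 measured, with a median of 1.80 and sums of 24.6 to 39.6 in nephrectomized rats, against 10.1 to 12.1 in sham rats. The part of these shifts in cell markers in the small differences of the respiratory chain genes was not tested.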

How the data were processed

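Gene expression was measured in the kidneys of 8 rats, 4 nephrectomized and 4 sham, on 1-colour arrays. The scanner files hold intensity values as the authors deposited them, made with Agilent Feature Extraction 10.5.1.1 per the file headers, with the background already subtracted. A series table of log2 values, likewise deposited, has column medians between -0.0169 and 0.0152 and served as an alternative. Its scaling was not stated in the sources used here. Its values correlated at 0.99998 with the log2 signals scaled as described below, once these were centred per probe. The table is therefore nearly the same scaling, tested over more genes, and not a separate processing of the arrays.

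From the scanner files, log2 processed signal minus the array's 75th percentile was taken, and 23982 probes were kept that Feature Extraction called well above background in every rat of a group. Symbols came from RefSeq accessions, which named 18713 of 41012 gene probes, and the brightest probe stood for a gene. The test was limma's moderated test (version 3.58.1, R 4.3.3), two-sided, with Benjamini-Hochberg adjustment over 19865 genes and a threshold of 0.05. Of these genes 9925 had a symbol, and each of the others was an accession without a symbol, counted as a gene. For 70 of the 19865 a spot marked as an outlier was missing on at least 1 array. The test was also run on simulated data in which each gene varied independently, so rats high or low for many genes at once were not covered. The array gives no counts, so the number of arrays limits the precision.

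The members and all lists were chosen with earlier results of these data known, so no list was tested as a set. Members given rat by rat are, in each complex, those past the threshold, those with the highest and the lowest difference and the 2 with the smallest p, and Ndufv2 and Ndufb10 were added after their values were seen. Of each other pathway or compared list, genes past the threshold or the 2 with the smallest p are named. Marker lists shown above are given by counts, medians or sums. Lists of podocyte, endothelium, fibroblast and mural, and erythroid markers were also read, with 0 genes called in each. The labels give each rat as a separate sample. Same-numbered rats were not paired, as the correlation of their deviations was between -0.02 and 0.10. Alternatives were other normalizations, background correction with normexp at an offset of 50 on the median spot signals (the mean signals were not used here), other filters, other limma settings, each slide alone or as a block, and leaving out each rat.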

Additional observations from a re-analysis of the deposited data

Results flagged for a closer look

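In 6 of 104 groups of 4 rats examined, 1 rat lay far from the other 3, by a gap above Dixon's 95% critical share of the group's whole range, where chance alone gives about 1 in 20. Nephrectomized rat 3 was the high one in 3 of them. For Ndufs1 it had 3.06 against 2.65 to 2.71 in the other nephrectomized rats (gap 0.855 of the range), for Ndufv1 3.96 against 3.60 to 3.64 (gap 0.889), and for Ndufc2 6.20 against 5.94 to 5.98 (gap 0.840). Nephrectomized rat 4 was low for Cox5a, at 5.89 against 6.19 to 6.25 in the other nephrectomized rats (gap 0.846). Sham rat 1 was low for Ndufab1, at 5.36 against 5.45 to 5.46 in the other sham rats (gap 0.885), and for the median deviation of complex I, at -0.06 against 0.01 to 0.02 (gap 0.833). None of these genes was called between nephrectomized and sham kidneys.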

How the results depend on the processing

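Over 24 alternative settings the member median stayed between 0.05 and 0.10, the number of members with a positive difference between 27 and 35 of 40, and the number of members called lower at 0. The thresholds of 0.01 and 0.1, trend and robust settings, both blocks and the filter on all 8 arrays left every member's difference unchanged. No sign could change in those settings, which are counted among the 960 pairs of member and setting. Of the 960 pairs, 50 changed sign, in 17 members and with none of them called. The number of members called higher was 1, and it was 0 with dim probes kept, on slide 1 alone, on slide 2 alone, with a threshold of 0.01 and with the replicate block, 2 with trend and robust settings, with array weights and with a threshold of 0.1 (Ndufa5 was added), and 0 to 1 when each rat was left out. The number of all genes called, 714, was 282 with dim probes kept, 2520 with array weights, 0 on slide 1 alone (1632 at an unadjusted p under 0.05), 141 on slide 2 alone, 260 with a threshold of 0.01, 1270 with a threshold of 0.1, 341 to 720 when each rat was left out (396, 341 and 427 without sham rat 2, 3 and 4, and 457 and 342 without nephrectomized rat 2 and 4) and 1242 without nephrectomized rat 3 and sham rat 1, an alternative chosen after seeing the data. The replicate block, used although the rats share only a number, gave 296 genes and 0 members called. Among complex medians, complex IV had 0.0044 with quantile normalization and 0.038 on slide 2, complex V had -0.058 on slide 1, 0.15 on slide 2 and 0.041 with quantile normalization, complex II had 0.030 on slide 1 and 0.125 on slide 2, and complex III had 0.048 on slide 1 and 0.081 with array weights. Without nephrectomized rat 3 and sham rat 1, complexes I, II, III and V had 0.048, 0.049, 0.014 and 0.035. With each rat left out in turn, the medians ranged from 0.07 to 0.11 for complex I, 0.06 to 0.10 for complex II, 0.05 to 0.17 for complex III, 0.056 to 0.092 for complex IV and 0.02 to 0.08 for complex V. The cause of these changes was not tested.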
